A study of Mus musculus with 9 samples.

Results

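The replication-dependent histone genes are the clustered, multicopy genes that supply histones for newly copied DNA. They were taken as all genes of the gene-body table whose symbol begins with Hist1h, Hist2h, Hist3h or Hist4h, which gave 68 of 24391 genes. By class they are 6 linker histone (H1) genes and 18 H2A, 19 H2B, 12 H3 and 13 H4 genes. By locus, 54 lie in the Hist1 cluster on chromosome 13, 10 in the Hist2 cluster on chromosome 3, 3 in the Hist3 cluster on chromosome 11 and 1, Hist4h4, on chromosome 6.

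Nascent transcription was measured with PRO-seq, which maps RNA still held by engaged RNA polymerase, in 9 libraries of mouse erythroid cell lines. G1E-ER4 cells carry the transcription factor GATA1 fused to the ligand-binding domain of the oestrogen receptor and gave 3 libraries without estradiol (0 h), and 2 each after exposure for 13 h and for 24 h to estradiol at 100 nM, which activates the fusion. Their parent line G1E, a progenitor line that lacks GATA1 and was left untreated, gave the fourth group (n = 2). All groups grew in the same medium with erythropoietin and kit ligand. Nothing in the labels ties replicates to separate cultures, and p-values therefore reflect the library-to-library spread alone, which may be technical.

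Each cell has to make histones in step with DNA synthesis, and these genes are switched on in S phase by NPAT, a coactivator that gathers at the histone gene clusters. Unlike other mRNAs of animal cells, theirs normally lack a poly(A) tail and end instead in a stem-loop that the stem-loop binding protein SLBP recognises. Core histones H2A, H2B, H3 and H4 form the nucleosome, and linker histone H1 binds the DNA that enters and leaves it. Red cell precursors keep dividing while they condense their chromatin, and then leave the cell cycle.

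Most of these genes carried no gene-body reads. Of the 68 genes, 54 had 0 reads in all 9 libraries, Hist1h2bq, Hist1h2br and Hist2h3c1 had 1 read in all, and 11 passed the filter on low counts and were tested. No H2A gene and no H4 gene had a gene-body read. The 11 tested genes were Hist1h1a, Hist1h1b, Hist1h1c, Hist1h1d, Hist1h1e and the testis-specific Hist1h1t of the H1 class, Hist1h2bc, Hist1h2be, Hist1h2bp and Hist2h2be of the H2B class, and Hist1h3f. The genes at 0 were short, with a median RefSeq span of 477.5 bp and a longest span of 911 bp, while the tested genes ran from 725 to 37455 bp. Short genes of any kind were often at 0 in the table: 95.7% of 162 protein-coding genes up to 700 bp had 0 reads, against 7.01% of 18324 protein-coding genes over 2000 bp. Between these, 91.2% of 1185 protein-coding genes longer than 700 and up to 1000 bp had 0 reads, where 1 of 8 histone genes did and the H1 genes were counted. How the authors bounded a gene body is not given in the sources used here, so a value of 0 says nothing of whether a short histone gene was transcribed. The 3 H2B genes of highest count have RefSeq spans of 8282 bp (Hist1h2bc), 37455 bp (Hist1h2be) and 14079 bp (Hist1h2bp). These are far longer than a core histone mRNA, and which part of them the counts cover is not stated. Near-identical copies share reads, and whether the counts use strand is not stated.

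**Figure D1:**
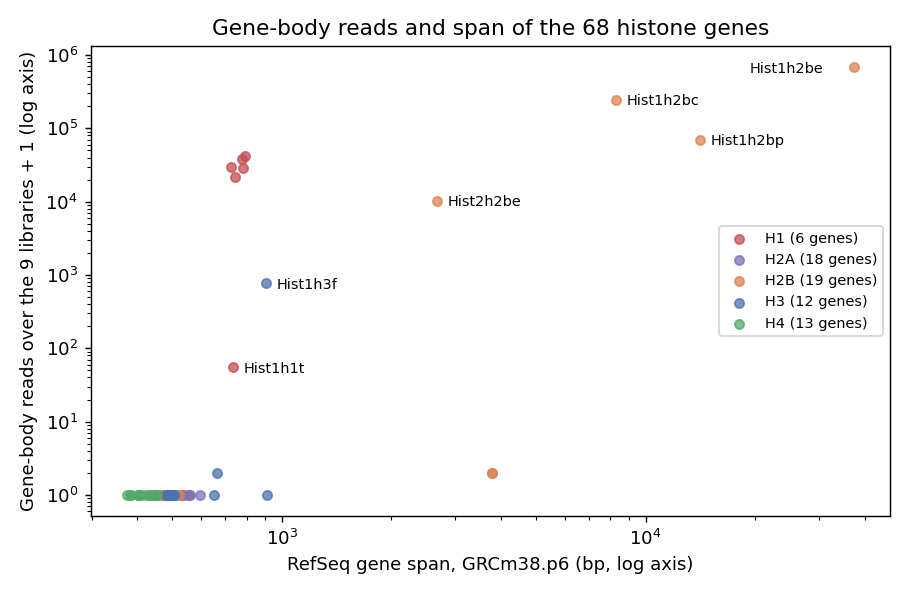
Gene-body reads summed over the 9 libraries, plus 1, against RefSeq gene span in bp for the 68 histone genes, both on log axes, with 1 point per gene coloured by histone class. The 54 genes with 0 reads sit at the bottom with spans up to 911 bp, and the 4 H2B genes with many reads have spans over 2000 bp.

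The starts of the genes carried the signal that the gene bodies lacked. The second deposited table counts reads in peaks of transcription initiation called with dREG, as the table's name states, a method that finds initiation in run-on data, and each row (a whole peak or 1 strand of a peak) is called an element here. The authors' table placed 56 elements, from 32 peaks, at the starts of histone genes, and all 56 passed the filter. They name 60 of the 68 genes, including 15 of 18 H2A genes, 16 of 19 H2B genes, 12 of 12 H3 genes and 12 of 13 H4 genes. The peaks were 1351 to 9351 bp wide with a median of 4051 bp, wider than a core histone gene, so an element holds reads of the whole gene as well as of its start. Of the 32 peaks, 20 name more than 1 histone gene and 1 names 5, so most elements describe a group of neighbours. The 8 genes with no element were Hist1h1t, Hist1h2aa and Hist1h2ba, known as testis histones, and Hist1h2ao, Hist1h2ap, Hist1h2bq, Hist1h2br and Hist1h4m.

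These elements held a large share of all element reads. The share was 2.96%, 5.50% and 5.09% in the 3 libraries at 0 h, 4.44% and 6.48% at 13 h, 3.90% and 5.41% at 24 h, and 3.86% and 3.41% in G1E. The G1E-ER4 groups overlapped one another. G1E overlapped 0 h, but both G1E libraries lay below every 13 h and 24 h library. The lowest and highest of the G1E-ER4 libraries at 0 h differed by more than any group means. In gene bodies the 68 genes together took 0.0729%, 0.216% and 0.165% of reads at 0 h, 0.110% and 0.297% at 13 h, 0.112% and 0.161% at 24 h, and 0.105% and 0.0961% in G1E. The element with most reads names Hist1h2ad, Hist1h2ae, Hist1h2bf, Hist1h2bg and Hist1h3d, and held 2242, 5076 and 5487 CPM (reads scaled to library size by TMM) at 0 h, 3822 and 6449 CPM at 13 h, 4438 and 7588 CPM at 24 h, and 3450 and 3093 CPM in G1E.

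Facts of the whole series bear on these values. Gene-body reads per library ran from 37830789 to 139945759 and element reads from 15394427 to 59952454, and counting intervals at such depths cover counting error only. The numbers that open the library titles fall in 4 runs, starting with 15 (0 h and 13 h replicate 1), 16 (0 h and 13 h replicate 2), 18 (0 h replicate 3, 24 h replicates 1 and 2, and G1E replicate 1) and 20 (G1E replicate 2), and what a run stands for is not stated. The summed level of 10 erythroid markers was 603 to 635 CPM at 0 h, 1425 to 1544 CPM at 13 h, 2856 to 3623 CPM at 24 h and 678 to 943 CPM in G1E, with none of the 10 at 0. The 8 mast cell and basophil markers summed to 96.4 to 139.7 CPM at 0 h, 4.75 to 8.15 CPM at 13 h, 1.05 to 1.54 CPM at 24 h and 75.2 to 189 CPM in G1E, with Mcpt8 at 0. The 8 megakaryocyte markers summed to 37.8 to 53.7 CPM at 0 h, 132 to 135 CPM at 13 h, 73.3 to 116 CPM at 24 h and 59.9 to 66.4 CPM in G1E, and the granulocyte and lymphocyte markers each to at most 1.69 CPM in any library. The 6 S phase markers summed to 815 to 893 CPM at 0 h, 758 to 820 CPM at 13 h, 304 to 403 CPM at 24 h and 928 to 1076 CPM in G1E. The 6 G2 and M phase markers summed to 891 to 1021 CPM at 0 h, 1391 to 1737 CPM at 13 h, 1551 to 1865 CPM at 24 h and 1036 to 1107 CPM in G1E. The part of cell cycle makeup and of the runs of title numbers in the histone values was not tested beyond the within-run values given below. In bulk samples, fewer cells in S phase and less histone transcription per cell cannot be told apart.

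Linker histone genes varied widely between libraries of a group. Hist1h1c, which encodes the variant H1.2, had 11.1, 9.37 and 77.4 CPM of gene-body reads at 0 h, 20.1 and 14.9 CPM at 13 h, 54.4 and 91.3 CPM at 24 h, and 19.3 and 12.7 CPM in G1E. Hist1h1b, which encodes H1.5, had 34.1, 33.6 and 88.1 CPM at 0 h, 52.6 and 26.6 CPM at 13 h, 71.6 and 96.6 CPM at 24 h, and 38.6 and 28.5 CPM in G1E. In each of these genes 0 h replicate 3 stood with the 24 h libraries, and away from the other 0 h libraries. Hist1h1d, which encodes H1.3, had 24.96, 18.6 and 92.9 CPM at 0 h, 38.3 and 12.6 CPM at 13 h, 67.6 and 97.4 CPM at 24 h, and 37.3 and 27.1 CPM in G1E. Hist1h1e, which encodes H1.4, had 20.5, 10.1 and 59.7 CPM at 0 h, 41.9 and 12.2 CPM at 13 h, 56.3 and 79.7 CPM at 24 h, and 21.8 and 20.2 CPM in G1E. The same library was again the high one at 0 h. Hist1h1a, which encodes H1.1, had 17.2, 24.4 and 53.7 CPM at 0 h, 23.5 and 17.3 CPM at 13 h, 18.9 and 29.8 CPM at 24 h, and 25.2 and 19.03 CPM in G1E, so 0 h replicate 3 was its highest library of all. Hist1h1t was read 1 to 17 times per library, too few to compare.

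The H2B genes followed another pair of libraries. Hist1h2be had 373, 1228 and 813 CPM at 0 h, 655 and 1844 CPM at 13 h, 827 and 1109.5 CPM at 24 h, and 574 and 525 CPM in G1E. Hist1h2bc had 133, 517 and 285 CPM at 0 h, 216 and 799 CPM at 13 h, 191 and 316 CPM at 24 h, and 200.4 and 176 CPM in G1E. For both genes replicate 2 was the highest library at 0 h and at 13 h, and these are the libraries of run 16. Hist1h2bp had 27.8, 116 and 103 CPM at 0 h, 35.3 and 192 CPM at 13 h, 50.1 and 112 CPM at 24 h, and 87.9 and 62.7 CPM in G1E, and Hist2h2be showed 6.89 to 31.2 CPM over the 9 libraries. Hist1h3f, the single H3 gene tested, had 0.554, 1.37 and 0.708 CPM at 0 h, 0.976 and 3.15 CPM at 13 h, 0.268 and 0.644 CPM at 24 h, and 0.601 and 0.894 CPM in G1E.

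Summed by class, the H1 genes had 108, 96.0 and 372 CPM at 0 h, 177 and 83.6 CPM at 13 h, 269 and 395 CPM at 24 h, and 142 and 108 CPM in G1E. The H2B genes summed to 541, 1892 and 1211 CPM at 0 h, 916 and 2855 CPM at 13 h, 1082 and 1553 CPM at 24 h, and 870 and 769 CPM in G1E. The G1E libraries lay within the range of the 0 h libraries in both sums.

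**Figure D2:**
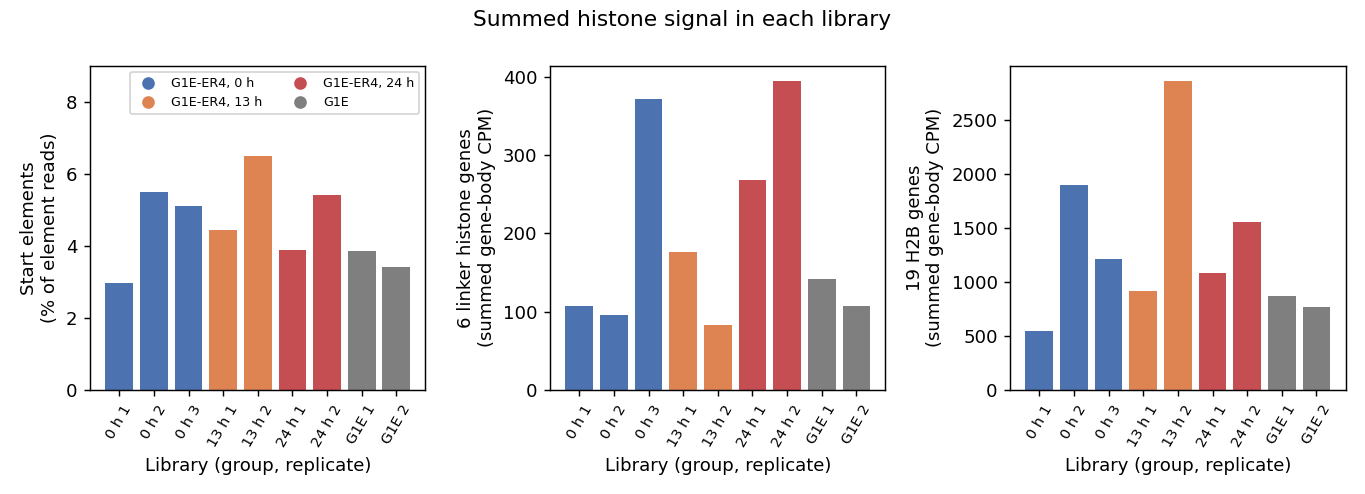
Bars give, per library, the percent of element reads in the 56 start elements, the summed gene-body CPM of the 6 H1 genes and that of the 19 H2B genes, coloured by group. The H1 sum is high in 0 h replicate 3 and both 24 h libraries, and the H2B sum is high in replicate 2 of 0 h and of 13 h.

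At 24 h against 0 h, none of the 11 tested genes rose or fell in gene bodies, in a comparison where 29.0% of 13825 genes rose and 30.7% fell (edgeR quasi-likelihood test, adjusted p under 0.05). None had an unadjusted p under 0.05 either, and DESeq2 called 0. Hist1h1c averaged 72.8 ± 26.1 CPM at 24 h (SD, n = 2) and 32.6 ± 38.8 CPM at 0 h (SD, n = 3), a log2 fold change of 1.16 ± 0.74 (SE, edgeR adjusted p = 0.203), and its 95% interval ran from -0.50 to 2.81. Hist1h2be averaged 968 ± 199.5 CPM at 24 h and 805 ± 427 CPM at 0 h, a log2 fold change of 0.27 ± 0.47 (SE, edgeR adjusted p = 0.648) with an interval of -0.78 to 1.32. Such intervals hold both no change and a change of more than 2-fold, so these genes are not shown to be steady. Without 0 h replicate 3, 4 of the 11 genes rose: Hist1h1b by 1.31, Hist1h1c by 2.83, Hist1h1d by 1.92 and Hist1h1e by 2.15 on the log2 scale, with edgeR adjusted p from 0.000119 to 0.00798. Within run 18, which holds that library and both 24 h libraries, the log2 ratio of 24 h over 0 h was -0.13 for Hist1h1c, -0.08 for Hist1h1b, -0.19 for Hist1h1d and 0.17 for Hist1h1e. At 24 h against 0 h, a fit with the run as a block likewise compares the 24 h libraries with 0 h replicate 3 alone. In that fit no tested gene rose and Hist1h1a fell by 1.14 (edgeR adjusted p = 0.0348). A rise of these 4 H1 genes at 24 h was therefore seen against 0 h replicates 1 and 2 and not against replicate 3. Of the other H1 genes, Hist1h1a passed the test only as the fall with the run block, and Hist1h1t in none of these fits.

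At the starts, 5 of 56 elements rose at 24 h against 0 h and 0 fell, where 22.7% of 35158 elements rose and 29.5% fell, and where 30.0% of 12973 elements at gene starts of any kind rose and 20.8% fell. The members' share of 5 in 56 was below both backgrounds. DESeq2 called 6 rises and 0 falls, and 6 of the 56 had an unadjusted p under 0.05 with edgeR. The median log2 fold change over the 56 was 0.09, against 0.14 over all elements at gene starts. Without 0 h replicate 1, 2 elements rose and 6 fell. Within run 18, 10 of 56 elements were higher in 24 h replicate 1 and 29 of 56 in 24 h replicate 2 than in 0 h replicate 3.

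Of the 5, 3 lie in the Hist2 cluster. The plus-strand element of the peak that names Hist2h2aa1, Hist2h2aa2, Hist2h3c1 and Hist2h3c2, at chr3:96040250-96045451 (mm9), had 66.5 and 91.7 CPM at 24 h, against 29.1, 32.0 and 48.4 CPM at 0 h. The minus strand of this peak, which held more reads, had 754 and 1066 CPM at 24 h, against 691, 1570 and 1212 CPM at 0 h. It did not pass the test. In the plus-strand element all 24 h libraries lay above all 0 h libraries, and the log2 fold change was 1.12 ± 0.24 (SE, edgeR adjusted p = 0.00174). This element rose in the comparison under every alternative run on it, including each left-out library and the run block (0.71, edgeR adjusted p = 0.04). Within run 18 it had 66.5 and 91.7 CPM at 24 h against 48.4 CPM at 0 h. The run block here rests on those same libraries, with 0 h replicate 3 as the only one at 0 h, and is not separate evidence. The minus-strand element of the neighbouring peak that names Hist2h2aa1 and Hist2h2aa2, at chr3:96048000-96049451, had 117 and 143 CPM at 24 h, against 71.98, 83.1 and 100.1 CPM at 0 h, a log2 fold change of 0.61 ± 0.19 (SE, edgeR adjusted p = 0.0143). The minus-strand element that names Hist2h2bb and Hist2h3b, antisense to them, had 46.5 and 62.0 CPM at 24 h, against 23.5, 40.7 and 38.2 CPM at 0 h, a log2 fold change of 0.67 ± 0.24 (SE, edgeR adjusted p = 0.0314). With the run as a block the last 2 of these calls were lost (edgeR adjusted p = 0.147 and 0.187). Both were also lost without 24 h replicate 2 (edgeR adjusted p = 0.0657 and 0.14), and the Hist2h2bb and Hist2h3b call without 0 h replicate 1 (edgeR adjusted p = 0.102).

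The other 2 are the strands of the Hist1h1c peak at chr13:23829150-23832751. Its sense strand had 2905 and 3916 CPM at 24 h, against 1660, 1868 and 2690 CPM at 0 h, a log2 fold change of 0.72 ± 0.26 (SE, edgeR adjusted p = 0.033). Its antisense strand had 48.6 and 43.5 CPM at 24 h, against 16.1, 35.4 and 27.6 CPM at 0 h, a log2 fold change of 0.81 ± 0.29 (SE, edgeR adjusted p = 0.0311). The groups did not overlap on either strand. With the run as a block the antisense strand kept its call (0.74, edgeR adjusted p = 0.0275) and the sense strand lost it (0.34, edgeR adjusted p = 0.38). Leaving out 0 h replicate 1 ended both calls (sense 0.57, edgeR adjusted p = 0.0822, and antisense 0.54, edgeR adjusted p = 0.0882). The antisense call was also lost without 0 h replicate 3 or 24 h replicate 1 (edgeR adjusted p = 0.0678 and 0.134), and the sense call without 0 h replicate 2 or 24 h replicate 2 (edgeR adjusted p = 0.0772 and 0.152). The fit with the run block called 2 rises and 3 falls, the falls being Hist4h4 plus strand (-0.62), Hist1h1b plus strand (-1.06), which is antisense to the gene, and the plus strand of the peak of Hist1h2af, Hist1h3g and Hist1h4h (-0.84).

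RefSeq promoter windows, 250 bases before to 50 bases after an annotated start, were held for 62 of the 68 genes in 63 windows of build GRCm38.p6. The ones below belong to genes of some of the elements that changed and to the most-read H1 and H2B genes. The windows of Hist2h2aa1 (chr3:96245247-96245546, plus strand) and Hist2h2aa2 (chr3:96240325-96240624, minus strand) share an unbroken run of 219 bases, and reads from such copies cannot be told apart. Hist1h1c lies at chr13:23738557-23738856 (plus strand), Hist1h1b at chr13:21780576-21780875 (minus strand), Hist1h4j at chr13:21734784-21735083 (plus strand) and the shown start of Hist1h2be at chr13:23585921-23586220 (minus strand). Hist1h4j was added after its values were seen. Capitals mark, on either strand, the TATA box, the CCAAT box, the octamer and the GATA words whose letters are given after the sequences. A second Hist1h2be window, at chr13:23621045-23621344 (minus strand), is not shown. It holds a GATA word and no octamer, while the shown one holds the octamer and no GATA word.
Hist1h1c: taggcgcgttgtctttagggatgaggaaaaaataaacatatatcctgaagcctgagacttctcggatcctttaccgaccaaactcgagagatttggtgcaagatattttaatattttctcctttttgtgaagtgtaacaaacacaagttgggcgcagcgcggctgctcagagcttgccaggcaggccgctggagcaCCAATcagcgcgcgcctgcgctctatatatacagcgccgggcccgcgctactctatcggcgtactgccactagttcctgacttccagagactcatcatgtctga
Hist1h1b: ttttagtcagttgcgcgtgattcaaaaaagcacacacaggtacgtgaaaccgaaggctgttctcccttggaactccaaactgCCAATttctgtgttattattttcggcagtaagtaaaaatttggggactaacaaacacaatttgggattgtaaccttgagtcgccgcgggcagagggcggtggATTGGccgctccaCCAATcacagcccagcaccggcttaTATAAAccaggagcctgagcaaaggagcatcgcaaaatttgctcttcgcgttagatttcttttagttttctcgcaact
Hist2h2aa1: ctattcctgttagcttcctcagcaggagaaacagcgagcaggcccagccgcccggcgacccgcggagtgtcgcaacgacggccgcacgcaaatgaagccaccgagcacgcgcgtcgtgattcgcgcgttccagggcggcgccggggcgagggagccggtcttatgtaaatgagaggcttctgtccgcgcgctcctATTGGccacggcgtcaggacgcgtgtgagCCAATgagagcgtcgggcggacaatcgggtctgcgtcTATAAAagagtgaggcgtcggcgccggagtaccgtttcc
Hist2h2aa2: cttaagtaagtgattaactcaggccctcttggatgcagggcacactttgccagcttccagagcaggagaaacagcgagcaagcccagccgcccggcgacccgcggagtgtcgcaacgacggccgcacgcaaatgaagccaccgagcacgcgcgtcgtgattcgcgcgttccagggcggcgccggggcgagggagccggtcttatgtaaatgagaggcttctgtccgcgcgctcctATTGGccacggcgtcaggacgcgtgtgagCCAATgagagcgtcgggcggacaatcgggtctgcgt
Hist1h4j: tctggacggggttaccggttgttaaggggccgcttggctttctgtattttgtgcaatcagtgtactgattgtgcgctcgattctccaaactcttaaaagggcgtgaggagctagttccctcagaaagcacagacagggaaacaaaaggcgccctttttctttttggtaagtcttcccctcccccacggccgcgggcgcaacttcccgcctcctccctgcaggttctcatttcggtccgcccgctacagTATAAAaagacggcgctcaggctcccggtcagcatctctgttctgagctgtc
Hist1h2be: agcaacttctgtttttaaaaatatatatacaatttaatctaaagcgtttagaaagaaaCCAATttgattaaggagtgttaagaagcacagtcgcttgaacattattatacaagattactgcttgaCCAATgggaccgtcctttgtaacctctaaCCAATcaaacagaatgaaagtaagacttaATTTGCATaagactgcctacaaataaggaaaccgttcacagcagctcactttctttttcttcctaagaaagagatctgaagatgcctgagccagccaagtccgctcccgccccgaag

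Across the 63 windows, CCAAT, the word bound by NF-Y, was found in 85.7%, against 37.4% of all 32851 RefSeq windows of the same length, and it was in every H1, H2A, H2B and H3 window but in 3 of 12 H4 windows. TATAAA, the TATA box, was found in 55.6% of histone windows and 13.6% of all windows. The octamer ATTTGCAT, bound by OCT1, was in 22.2% of histone windows and 1.74% of all windows, in 7 of 18 H2A and 7 of 17 H2B windows and in none of the H1, H3 or H4 windows. A GATA word, which is AGATAA or the word TGATAA or the word AGATAG or the word TGATAG, was in 28.6% of histone windows and 29.8% of all windows. By class it was in 0 of 6 H1, 4 of 18 H2A, 6 of 17 H2B, 6 of 10 H3 and 2 of 12 H4 windows. Each word was searched on both strands, and the words do not contain each other. Other shared runs joined Hist1h2bq with Hist1h2br (all 300 bases), Hist1h4m with Hist1h4n (285 bases), Hist2h3c1 with Hist2h3c2 (231 bases) and Hist1h2ao with Hist1h2ap (200 bases). Of those 8 genes, Hist1h2bq, Hist1h2br, Hist1h2ao, Hist1h2ap and Hist1h4m are among the 8 with no element at their start. In 10 places an H2A and an H2B gene start on opposite strands 164 to 281 bp apart. The windows of such a pair overlap, so a word in the shared bases was counted in both classes.

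At 13 h against 0 h, none of the 11 genes rose or fell, where 20.1% of genes rose and 20.9% fell. None had an unadjusted p under 0.05, and DESeq2 called 0. None of the 56 start elements rose or fell either (edgeR, 2 at an unadjusted p under 0.05, DESeq2 0), where 15.2% of all elements rose and 18.6% fell and where 16.0% of elements at gene starts rose and 13.4% fell. Their median log2 fold change was 0.07, and 34 of 56 were positive. The 2 runs that hold both time points differed. In run 15, 55 of 56 elements were higher in the 13 h library than in the 0 h library, with a median log2 ratio of 0.63, and in run 16, 29 of 56 were higher, with a median of 0.06. In gene bodies 11 of 11 genes were higher at 13 h in run 15 and 6 of 11 in run 16. With the run as a block, Hist1h2be rose by 0.70 (edgeR adjusted p = 0.0185), and 5 elements rose and 0 fell: the minus strands of the Hist2h2ab, Hist2h2ac and Hist2h2be peak (0.74), Hist2h4 (0.81), Hist1h4k (0.86), the Hist1h1e and Hist1h2be peak (0.67) and Hist1h4c (0.97). Hist1h4c, an H4 gene whose minus strand is its sense strand, had 818 and 1058 CPM at 13 h, against 313, 720 and 656 CPM at 0 h, so all 13 h libraries were above all 0 h libraries.

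**Figure D3:**
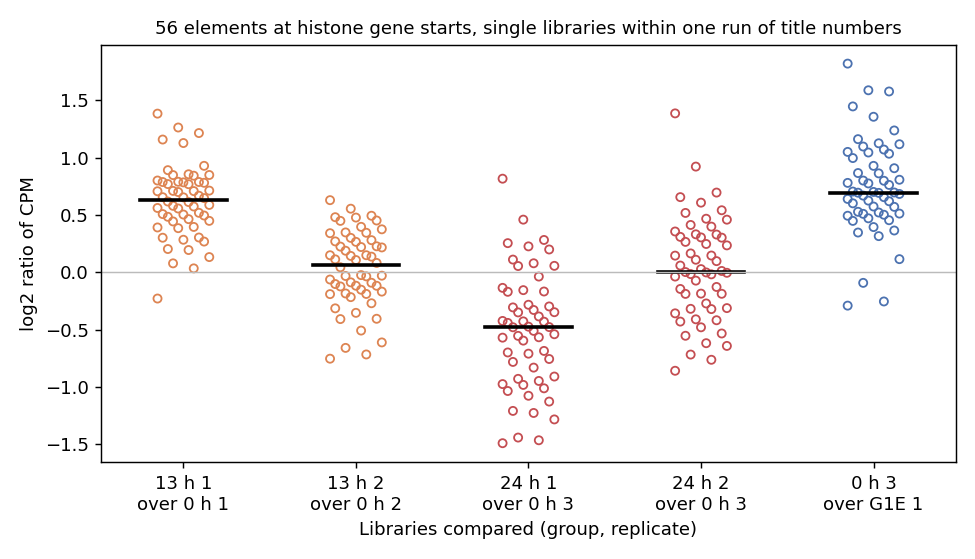
The log2 ratio of CPM between single libraries of the same run of title numbers for the 56 start elements, with 1 point per element and a bar at the median. Medians are 0.63 and 0.06 for 13 h over 0 h, -0.48 and 0.01 for each 24 h library over 0 h replicate 3, and 0.70 for 0 h replicate 3 over G1E replicate 1.

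At 24 h against 13 h, Hist1h3f fell and no tested gene rose, where 11.7% of genes rose and 12.5% fell. It averaged 0.456 ± 0.266 CPM at 24 h and 2.06 ± 1.54 CPM at 13 h (SD, n = 2 each), a log2 fold change of -2.17 ± 0.69 (SE, edgeR adjusted p = 0.0453). The groups did not overlap, but the 13 h libraries had 72 and 270 reads and the call was lost on leaving out 13 h replicate 2 (-1.09, edgeR adjusted p = 0.333), 24 h replicate 1 (-1.69, edgeR adjusted p = 0.182) or 24 h replicate 2 (-2.95, edgeR adjusted p = 0.0757). The H1 genes went the other way without passing the adjusted threshold: Hist1h1c was 2.06 ± 0.86 higher at 24 h (log2, SE, edgeR adjusted p = 0.109), Hist1h1d 1.70 ± 0.72 (adjusted p = 0.113) and Hist1h1b 1.09 ± 0.47 (adjusted p = 0.123). In all 3 genes both 24 h libraries lay above both 13 h libraries. With a replicate block all 3 rose (edgeR adjusted p = 0.0103, 0.0256 and 0.042 for Hist1h1c, Hist1h1d and Hist1h1b), and with only the 13 h and 24 h libraries in the fit Hist1h1c rose (edgeR adjusted p = 0.0261). No run holds both 13 h and 24 h libraries, so a fit with the run as a block compares them only through the 0 h libraries. That fit turned the direction to -0.85 for Hist1h1c, -0.21 for Hist1h1d and -0.21 for Hist1h1b, none past the test, and it ended the Hist1h3f call (-1.65, edgeR adjusted p = 0.267).

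Of the start elements, 1 of 56 rose and 1 fell at 24 h against 13 h, where 5.28% of elements rose and 7.82% fell, and DESeq2 called 2 rises and 1 fall. The Hist2h2aa1 and Hist2h2aa2 minus-strand element had 117 and 143 CPM at 24 h and 76.0 and 85.7 CPM at 13 h, a log2 fold change of 0.69 ± 0.21 (SE, edgeR adjusted p = 0.0452). The sense strand of Hist1h4j, an H4 gene, had 146 and 204 CPM at 24 h and 290.5 and 389 CPM at 13 h, a log2 fold change of -0.96 ± 0.27 (SE, edgeR adjusted p = 0.0331). Its levels at 0 h were 177, 305 and 246 CPM and in G1E 294 and 304 CPM, so the 24 h and 0 h libraries overlapped. Each of these calls was lost on leaving out either 24 h library or 13 h replicate 2, and the first also on leaving out 13 h replicate 1 (edgeR adjusted p from 0.0661 to 0.247).

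In G1E-ER4 cells at 0 h against G1E, none of the 11 genes rose or fell, where 7.88% of genes rose and 9.58% fell. None had an unadjusted p under 0.05, and DESeq2 called 0. Of the 56 start elements, 3 rose and 0 fell, where 7.18% of elements rose and 12.1% fell, and DESeq2 called 4 rises. All 3 are plus-strand elements of the Hist2 cluster. The element of Hist2h2ab, Hist2h2ac and Hist2h2be had 79.6, 170.0 and 149 CPM at 0 h, against 70.7 and 65.4 CPM in G1E, a log2 fold change of 0.96 ± 0.26 (SE, edgeR adjusted p = 0.0194). The element of Hist2h4 had 36.8, 59.9 and 71.8 CPM at 0 h, against 23.9 and 34.1 CPM in G1E, a log2 fold change of 0.96 ± 0.28 (SE, edgeR adjusted p = 0.0266). The element of Hist2h2aa1, Hist2h2aa2, Hist2h3c1 and Hist2h3c2 had 29.1, 32.0 and 48.4 CPM at 0 h, against 22.6 and 19.6 CPM in G1E, a log2 fold change of 0.79 ± 0.26 (SE, edgeR adjusted p = 0.0433). In all 3 every 0 h library lay above both G1E libraries. Each is the strand with fewer reads in its peak. Over all 9 libraries the plus strands averaged 115, 46.4 and 44.1 CPM, in the order given. The minus strands of the same peaks averaged 727, 472 and 1057 CPM, and none of these passed the test.

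The direction was shared more widely than the calls: 53 of the 56 elements were positive at 0 h against G1E, with a median log2 fold change of 0.43, against 8606 of 12973 positive and a median of 0.16 over all elements at gene starts. Not every 0 h library lay on that side. The 56 elements summed to 25622 CPM in 0 h replicate 1, below both G1E libraries (37498 and 34814 CPM). In 0 h replicates 2 and 3 they summed to 56043 and 57712 CPM. Elements of 1 peak and neighbouring copies share reads and are not independent. The calls moved with single libraries: 17 elements rose without 0 h replicate 1, 1 without 0 h replicate 2, 0 without 0 h replicate 3, 0 without G1E replicate 1 and 1 without G1E replicate 2. Within run 18, 53 of 56 elements were higher in 0 h replicate 3 than in G1E replicate 1, with a median log2 ratio of 0.70. With the run as a block, G1E replicate 2 stands alone in its run. For this comparison that fit therefore rests on the same pair, 0 h replicate 3 and G1E replicate 1, and is not separate evidence. In it 8 elements rose, and Hist1h1c rose in gene bodies by 2.00 (edgeR adjusted p = 0.0317).

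**Figure D4:**
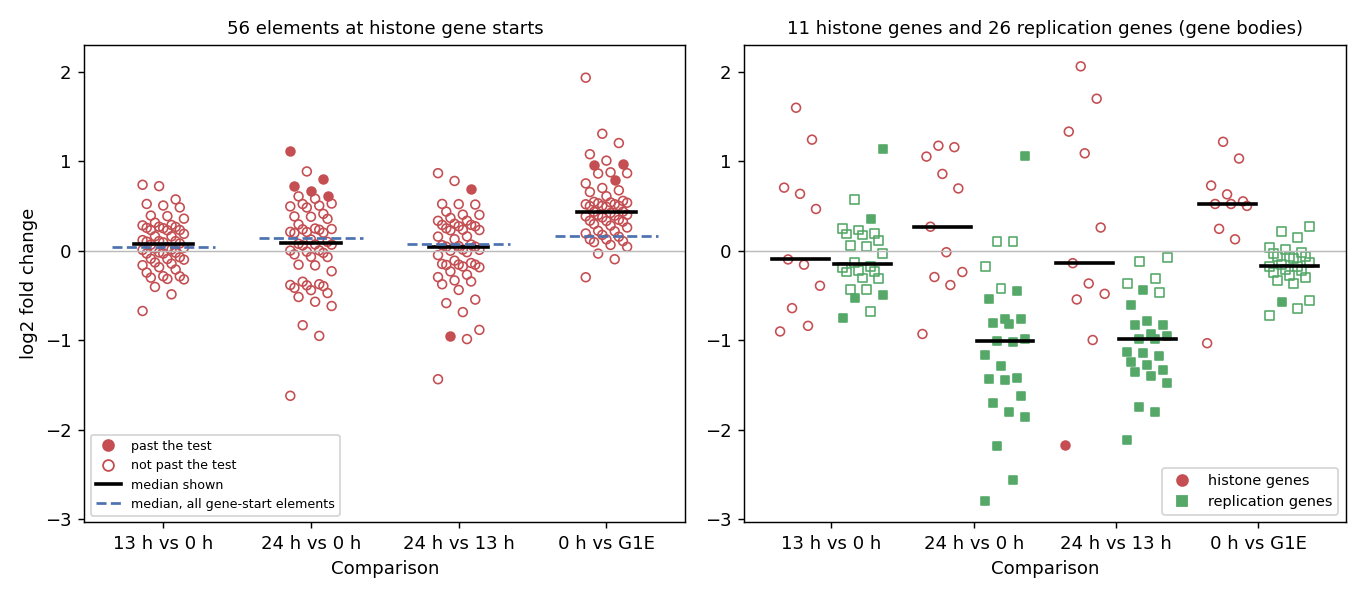
Log2 fold changes in the 4 comparisons for the 56 start elements (left) and for the gene bodies of the 11 tested histone genes and 26 replication genes (right), with filled points past the test and black bars at medians. The start elements lie around the median of all gene-start elements (dashed) except at 0 h against G1E, and at 24 h the replication genes centre on -1.01 against 0 h.

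Where a peak faces histone genes of 1 strand, its strands could be named, which gave 15 sense and 15 antisense elements. The summed sense signal was 22.9, 22.03 and 25.2 times the antisense signal at 0 h, 29.2 and 29.7 times at 13 h, 25.2 and 27.3 times at 24 h, and 33.1 and 26.1 times in G1E. By peak the median ratio over libraries ran from 3.78 at Hist3h2ba to 133 at Hist1h3i, and it was 97.5 at Hist1h1c and 50.1 at Hist1h1b. These are ratios within a window that covers the gene, so the sense side holds reads along the gene. At 0 h against G1E, 15 of 15 antisense and 13 of 15 sense elements were positive, with median log2 fold changes of 0.56 and 0.33, and none of either passed the test (edgeR, 7 antisense and 0 sense at an unadjusted p under 0.05).

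Intergenic elements beside the genes were called at shares near or below those of all elements. Of 28 tested intergenic elements that the authors' table assigns to a histone gene, 2 rose and 4 fell at 13 h against 0 h, 3 rose and 3 fell at 24 h against 0 h, 0 rose and 2 fell at 24 h against 13 h, and 2 rose and 0 fell at 0 h against G1E. Over all elements, 15.2% rose and 18.6% fell at 13 h, and 22.7% rose and 29.5% fell at 24 h, each against 0 h. The following were named after their values were seen. The element at chr13:23601300-23604451 (mm9), assigned to Btn2a2 and Hist1h4h, had 0.161, 0.124 and 0.265 CPM at 0 h, 11.7 and 9.45 CPM at 13 h, 2.09 and 1.95 CPM at 24 h, and 0.381 and 0.133 CPM in G1E. It rose by 5.77 ± 0.45 at 13 h against 0 h (log2, SE, edgeR adjusted p = 1.23e-06) and fell by 2.39 ± 0.43 at 24 h against 13 h (edgeR adjusted p = 0.00483). The element at chr13:22141500-22143701 on the plus strand, assigned to Hist1h2ag and Vmn1r188, had 17.9, 20.8 and 24.2 CPM at 0 h, 3.67 and 5.87 CPM at 13 h, 2.73 and 1.95 CPM at 24 h, and 16.5 and 18.6 CPM in G1E. It fell by 2.13 ± 0.31 at 13 h and by 3.16 ± 0.33 at 24 h, each against 0 h (log2, SE, edgeR adjusted p = 0.000152 and 4.41e-06). Of the 7 elements inside a histone gene, 5 of them in the long span of Hist1h2be and 2 at Hist2h3c1 and Hist2h3c2, 2 rose and 3 fell at 24 h against 0 h. The one at chr13:23683800-23685951 had 8.45 and 14.2 CPM at 24 h, against 27.1, 32.0 and 39.0 CPM at 0 h, and fell by 1.53 ± 0.29 (log2, SE, edgeR adjusted p = 0.000688).

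Most genes of DNA replication fell at 24 h. Of 26 replication genes tested, 21 fell and 1 rose at 24 h against 0 h, 21 fell and 0 rose at 24 h against 13 h, 3 fell and 2 rose at 13 h against 0 h, and 1 fell and 0 rose at 0 h against G1E. Over all genes, in the same order, 30.7%, 12.5%, 20.9% and 9.58% fell, and 29.0%, 11.7%, 20.1% and 7.88% rose. The median log2 fold change of the replication genes at 24 h against 0 h was -1.01, against 0.27 for the 11 histone genes and -0.07 for all genes tested. The histone median was not stable in sign: within run 18 the median log2 ratio of 24 h over 0 h was -0.13, with 4 of 11 positive. Cdt1, which licenses replication origins, averaged 7.59 ± 3.97 CPM at 24 h (SD, n = 2) and 52.6 ± 7.62 CPM at 0 h (SD, n = 3), a log2 fold change of -2.79 ± 0.32 (SE, edgeR adjusted p = 4.2e-05). Uhrf1, a reader of newly copied DNA, fell by 2.57 and Pcna, the sliding clamp, by 2.19. The count at 24 h against 0 h was 20 fallen with the run as a block and 20 without 0 h replicate 3. At 24 h against 13 h the run block called 0 of 26, with 20 at an unadjusted p under 0.05 (edgeR) and none positive, and the median log2 fold change was -1.03 with that block and -0.99 without it. The difference between the histone and the replication genes was not tested.

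Genes that control histone mRNA were called in both directions. Of 22 genes for histone gene transcription and mRNA 3′ end processing, 8 rose and 9 fell at 24 h against 0 h, 5 rose and 5 fell at 13 h against 0 h, 2 rose and 5 fell at 24 h against 13 h, and 0 rose and 1 fell at 0 h against G1E. Over all genes 29.0% rose and 30.7% fell at 24 h against 0 h, and nothing particular to these genes is read from their counts. With the run as a block, none of these 22 genes, and none of the variant, chaperone or neighbouring genes below, was called at 24 h against 13 h (edgeR, 7 of the 22 at an unadjusted p under 0.05). Npat averaged 107 ± 3.45 CPM at 24 h and 136 ± 6.14 CPM at 0 h, a log2 fold change of -0.35 ± 0.12 (SE, edgeR adjusted p = 0.0297). Slbp averaged 154 ± 14.5 CPM at 24 h and 162 ± 42.6 CPM at 0 h, a log2 fold change of -0.07 ± 0.19 (SE, edgeR adjusted p = 0.76). Casp8ap2 (FLASH), a partner of NPAT, rose by 0.38 ± 0.12 (log2, SE, edgeR adjusted p = 0.0161). Lsm11, a part of the U7 particle that cuts histone pre-mRNA, fell by 2.13, and the cap-binding gene Ncbp1 and the zinc finger gene Zfp473 rose by 2.05 and 1.83. At 24 h against 13 h the S phase activator E2f1 fell by 1.43.

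Replication-independent histone variants, which can be made outside S phase as well as in it, and chaperones were also called in both directions. In both lists more genes fell than rose at 24 h against 0 h, where 29.0% of all genes rose and 30.7% fell. Of 10 variant genes tested, 2 rose and 5 fell at 24 h against 0 h, 2 rose and 3 fell at 13 h, 0 rose and 2 fell at 24 h against 13 h, and 0 rose and 1 fell at 0 h against G1E. H2afv, which encodes the H2A.Z.2 variant, averaged 224 ± 34.4 CPM at 24 h and 25.5 ± 7.04 CPM at 0 h, a log2 fold change of 3.13 ± 0.23 (SE, edgeR adjusted p = 2.85e-06). Cenpa, the centromere H3, rose by 1.49. H2afz, which encodes H2A.Z.1, fell by 1.39 and H2afx by 0.47 with groups that overlapped, and H3f3b, an H3.3 gene, had a log2 fold change of -0.05 (edgeR adjusted p = 0.798). H2afy3, listed as a variant gene, fell by 4.12, at 0.118 CPM at 24 h and 2.05 CPM at 0 h. H1f0, the linker histone known to build up in differentiated cells, is listed at 0 reads in all 9 libraries and has no value here. Of 22 chaperone and assembly genes, 3 rose and 14 fell at 24 h against 0 h, 4 rose and 6 fell at 13 h, 2 rose and 7 fell at 24 h against 13 h, and 0 rose and 2 fell at 0 h against G1E, with Set (-2.65), Npm1 (-2.58) and Nap1l1 (-2.04) changing most at 24 h against 0 h.

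Non-histone genes beside the clusters changed in both directions. Over all genes 29.0% rose and 30.7% fell at 24 h against 0 h, and 20.1% and 20.9% at 13 h against 0 h. The shares were 11.7% and 12.5% at 24 h against 13 h, and 7.88% and 9.58% at 0 h against G1E. Nothing particular to the neighbours is read from their counts. Of 15 tested beside the Hist1 cluster, 2 rose and 4 fell at 24 h against 0 h, 5 rose and 1 fell at 13 h, 2 rose and 3 fell at 24 h against 13 h, and 3 rose and 4 fell at 0 h against G1E. Btn1a1, a butyrophilin gene, averaged 121 ± 27.0 CPM at 24 h and 4.62 ± 0.513 CPM at 0 h, a log2 fold change of 4.71 ± 0.19 (SE, edgeR adjusted p = 1.91e-07). Of 8 beside the Hist2 cluster, 2 rose and 3 fell at 24 h against 0 h, 0 rose and 2 fell at 13 h, 1 rose and 2 fell at 24 h against 13 h, and 1 rose and 1 fell at 0 h against G1E. Bola1, next to the Hist2 cluster, fell by 2.09 at 24 h against 0 h.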

How the data were processed

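PRO-seq counts were analysed for 9 libraries in 4 groups. The authors deposited raw read counts per gene body and raw read counts per dREG peak or strand of a peak. Reads were aligned with BWA to build mm9, per the submitters' processing notes, and the counter, the annotation, the gene-body bounds, the use of strand and the treatment of reads with several matches are not stated in those sources. Each table was fitted whole with edgeR 4.0.16 (R 4.3.3, limma 3.58.1): filterByExpr on low counts (13825 genes and 35158 elements kept), TMM scaling, 4 group means without covariates, 5 residual degrees of freedom, robust quasi-likelihood tests and Benjamini-Hochberg adjustment, with a threshold of 0.05. SE is the log2 fold change over the square root of F, and intervals are 95%. DESeq2 1.42.0, other scalings, filters, blocks and left-out libraries were alternatives, and the edgeR step was tested on simulated data. The block by run of title numbers on elements and on the gene lists, the crossed replicate block, and the lists without 0 h replicate 3 were chosen after seeing the data. The members and lists were chosen with earlier results of these data known. Genes named with values were the 2 members of highest mean CPM in each class, called members, all members of counts of 5 or fewer, and up to 3 called genes with the largest change in each other list with a few fixed names; others were named after their values were seen. Shared replicate numbers were not taken as pairing. Elements were tied to genes by the names in the deposited table. Promoters and spans come from RefSeq (GRCm38.p6), searched with Python 3.11.15, and no coordinate was converted between builds.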

Additional observations from a re-analysis of the deposited data

How the results depend on the processing

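Single named genes and elements kept their direction and side of the threshold in 495 of the recomputed values, lost the call in 41, gained it in 20 and changed sign in 64. The 64 are log2 fold changes of gene bodies that passed the test neither before nor after. With a replicate block these were at 13 h against 0 h Hist1h1b 0.19, Hist1h1c 0.77, Hist1h1d 0.14 and Hist1h1e 0.75, at 24 h against 0 h Hist1h1a 0.23 and Hist1h2bp 0.35, at 0 h against G1E Hist1h1a -0.10, Hist1h1c -0.64, Hist1h1d -0.56, Hist1h1e -0.54 and Hist1h2bp -0.61. With the run block these were at 13 h against 0 h Hist1h1b 0.15, Hist1h1c 0.76, Hist1h1d 0.035 and Hist1h1e 0.66, at 24 h against 0 h Hist1h1b -0.066, Hist1h1c -0.087, Hist1h1d -0.17 and Hist2h2be 0.33, at 24 h against 13 h Hist1h1a -1.12, Hist1h1b -0.21, Hist1h1c -0.85, Hist1h1d -0.21, Hist1h1e -0.47, Hist1h1t 2.67 and Hist2h2be 0.37. With DESeq2 these were at 24 h against 0 h Hist1h2bp 0.0056. With total-count scaling these were at 24 h against 0 h Hist1h2be -0.11, at 24 h against 13 h Hist1h1a -0.031. Over the fits that each leave out 1 library, the results that changed sign ran as follows. At 13 h against 0 h they were Hist1h1b from -0.95 to 0.23, Hist1h1c from -1.34 to 0.78, Hist1h1d from -1.83 to 0.23, Hist1h1e from -1.28 to 0.82, Hist1h1t from -0.73 to 2.48, Hist1h2bc from -0.53 to 1.38, Hist1h2be from -0.30 to 1.22, Hist1h2bp from -1.22 to 1.24 and Hist2h2be from -0.69 to 0.77. At 24 h against 0 h they were Hist1h1a from -0.74 to 0.23, Hist1h2bc from -0.69 to 0.28, Hist1h2be from -0.077 to 0.71, Hist1h2bp from -0.70 to 0.45 and Hist2h2be from -0.61 to 0.63. At 24 h against 13 h they were Hist1h1a from -0.11 to 0.54, Hist1h1t from -1.43 to 1.81, Hist1h2bc from -1.64 to 0.24, Hist1h2be from -0.91 to 0.57, Hist1h2bp from -1.22 to 1.20 and Hist2h2be from -0.54 to 0.45. At 0 h against G1E they were Hist1h1a from -0.095 to 0.82, Hist1h1c from -0.65 to 1.47, Hist1h1d from -0.57 to 0.87, Hist1h1e from -0.46 to 0.94, Hist1h2bp from -0.21 to 0.54 and Hist1h3f from -0.22 to 0.54. Of the 11 genes, the replicate block called 4 at 24 h against 0 h and 4 at 24 h against 13 h; of the 56 elements it called 4 at 13 h against 0 h, 10 at 24 h against 0 h and 1 at 0 h against G1E. The numbers were not taken as pairing, for a reason seen in the log2 difference of replicate 1 minus replicate 2 within each group. Over 13825 genes this difference correlated by 0.614 between 0 h and 13 h but by -0.258 between 13 h and 24 h. A crossed replicate block, chosen after seeing the data, called 4 genes and 3 elements at 24 h against 13 h. The block by run of title numbers called 1 gene at 13 h against 0 h, 1 at 24 h against 0 h, 0 at 24 h against 13 h and 1 at 0 h against G1E, and 5, 5, 0 and 8 elements in those comparisons. Scaling elements by gene-body library sizes called 7 at 13 h against 0 h and 1 at 24 h against 13 h. Leaving out a library gave 0 to 1 genes and 0 to 3 elements at 13 h against 0 h, 0 to 4 genes and 2 to 8 elements at 24 h against 0 h, 0 to 1 genes and 0 to 1 elements at 24 h against 13 h, and 0 to 0 genes and 0 to 17 elements at 0 h against G1E. The elements went both ways: without 0 h replicate 1, 0 rose and 3 fell at 13 h against 0 h, and 2 rose and 6 fell at 24 h against 0 h, while without 0 h replicate 2, 3 rose and 0 fell at 13 h against 0 h. The cause was not tested. Over all features at 24 h against 13 h, 3349 genes were called, against 59 with the run block and 1583 with only those groups in the fit, and 4607 elements, against 1016 with the run block and 2452 with gene-body scaling. At 0 h against G1E 2415 genes were called, against 820 with the run block and 1552 with the replicate block. Without single libraries these totals fell to as few as 1233 genes and 651 elements at 24 h against 13 h, 1145 genes and 2420 elements at 0 h against G1E, and 7625 elements, against 11882 with all libraries, at 13 h against 0 h. Groups of 2 or 3 libraries limit the precision, and short genes without gene-body counts have no value at any of these depths.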
